A study of Homo sapiens with 12 samples.

Results

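A set of 10 genes that encode RNA G-quadruplex helicases and binders was followed across all libraries of the series. They were chosen by name, as 5 helicases (DHX36, DHX9, DDX3X, DDX5 and DDX17) and 5 RNA-binding proteins (CNBP, FMR1, FXR1, NCL and GRSF1). Each was found by its GENCODE gene identifier, so that they made 10 of the 62703 genes in the table, and all 10 were among the 15920 genes that passed the filter on low counts. The cells were HCT116, a human colorectal cancer cell line. They had been transfected for 48 h with either a control siRNA or an siRNA against hnRNP U, an RNA-binding protein. The control libraries bear siCtr in their titles and are described as wild-type in the deposited labels. For each siRNA, 3 libraries were made from total RNA and 3 from heavy polysomal (HP) RNA, the RNA that sediments with many ribosomes, which gave 4 conditions and 12 poly(A)-selected RNA-seq libraries. The deposited design describes the 3 libraries of a condition as biological replicates, and which of the hnRNP U siRNA sequences listed in the methods was used for them is not given in the sources used here.

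RNA G-quadruplexes (RG4s) are structures in which guanine-rich stretches of an RNA stack into planes held together by hydrogen bonds and potassium ions. Folded RG4s can hinder scanning or elongating ribosomes, polyadenylation and splicing, and cells hold them in check with helicases that unfold them and with proteins that bind their folded or unfolded form. DHX36 and DHX9 are DEAH-box helicases, DDX3X, DDX5 and DDX17 are DEAD-box helicases, and hnRNP U is itself an RG4-binding protein that the study examined together with DDX3X and GRSF1. The question put to the RNA-seq data here was whether the mRNAs of these proteins changed in amount, or in their presence in heavy polysomes, when hnRNP U was silenced.

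HNRNPU, the target of the siRNA, was measured first. In total RNA it had 992, 1106 and 985 CPM (counts scaled to library size by the trimmed mean of M-values, TMM) with control siRNA and 167, 149 and 160 CPM with hnRNP U siRNA. In HP RNA the levels were 1022, 1144 and 1073 CPM with control siRNA and 82.4, 75.2 and 77.1 CPM with hnRNP U siRNA. Every silenced library lay far below every control library, with log2 fold changes of −2.70 (SE 0.06, adjusted p = 3.06e-15) in total RNA and −3.82 (SE 0.06, adjusted p = 3.84e-18) in HP RNA by edgeR's quasi-likelihood test. Library totals ran from 30305012 to 39761103 counts. The 5 epithelial markers EPCAM, KRT8, KRT18, CDH1 and CLDN4 summed to 3144 to 3322 CPM in total RNA with control siRNA and 2976 to 3210 CPM with hnRNP U siRNA, and to 5343 to 5589 CPM and 5406 to 5846 CPM in HP RNA. In total RNA 1 of the 5 was called higher and 2 lower, and in HP RNA 1 higher and 1 lower. EPCAM rose by 0.23 in total RNA and by 0.34 in HP RNA on the log2 scale, and CLDN4 had −0.23 and −0.17, both called lower. The 6 markers of blood, stromal and endothelial cells summed to 6.88 to 17.8 CPM. COL1A1 made up nearly all of that sum, and PTPRC, CD3E, COL1A2 and PECAM1 were too low to be tested. COL1A1 was lower with hnRNP U siRNA, by 0.75 on the log2 scale in total RNA and by 1.01 in HP RNA, and the part of this in the results below was not tested. In such bulk libraries a change in the mix of cells and a change in RNA per cell cannot be told apart.

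In control cells all 10 mRNAs were present in both kinds of RNA, at levels that spanned more than an order of magnitude. Levels between genes were compared per length, as TPM (counts divided by the length of the merged exons and scaled to a common sum). In total RNA with control siRNA, NCL had 545 ± 24.3 TPM (SD, n = 3) and CNBP 397 ± 17.5 TPM (SD, n = 3). NCL, or nucleolin, is an abundant nucleolar protein of ribosome synthesis, and CNBP is a small zinc-knuckle protein that binds G-rich RNA. DHX9 had 229 ± 18.0 TPM and DDX5 228 ± 3.67 TPM, and these neighbours in the order did not differ beyond their spread. They were followed by GRSF1 with 127 ± 2.52 TPM, DDX3X with 90.5 ± 3.31 TPM, DDX17 with 85.4 ± 2.53 TPM and FXR1 with 78.7 ± 1.16 TPM. The lowest library of DDX3X (88.2 TPM) and the highest of DDX17 (87.4 TPM) were close, while GRSF1 lay above both and FXR1 below both in every library. DHX36 with 19.1 ± 0.565 TPM and FMR1 with 18.6 ± 0.921 TPM were the least abundant and overlapped. Among 12758 protein-coding genes tested, NCL lay at percentile 98.9 and FMR1 at percentile 52.6. With the length of the longest coding transcript in place of merged exons, the order changed to NCL, DDX5, CNBP, DHX9, DDX3X, DDX17, GRSF1, FXR1, FMR1 and DHX36, so that the ranks of GRSF1 and DDX5 depended on the length used.

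With hnRNP U siRNA, total RNA held more NCL and DDX3X mRNA and less DDX17, FXR1 and DHX9 mRNA. By edgeR's quasi-likelihood test (adjusted p under 0.05), 2 of the 10 members were called higher and 3 lower, where 28.0% of all genes tested were called higher and 29.3% lower. In HP RNA, 2 members were called higher and 2 lower, where the shares over all genes tested were 25.5% and 26.3%. The 4 members called in HP RNA (NCL, DDX3X, DDX17 and FXR1) were called in the same direction in total RNA. How often this holds over all genes was not counted, so it is not read as particular to the members. The median log2 fold change of the members was −0.03 in total RNA and −0.03 in HP RNA, beside 0.0005 and 0.0067 over all genes. The member shares were thus near the background, and the values are given below gene by gene. The comparisons in total and HP RNA share no library. HP and total libraries of the same siRNA were, however, most alike within a replicate number, for 12 of 12 libraries. The comparisons in total and HP RNA may therefore not be independent. HP/total, the interaction of siRNA and fraction, and the comparisons of HP RNA with total RNA reuse the same 12 libraries.

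**Figure D1:**
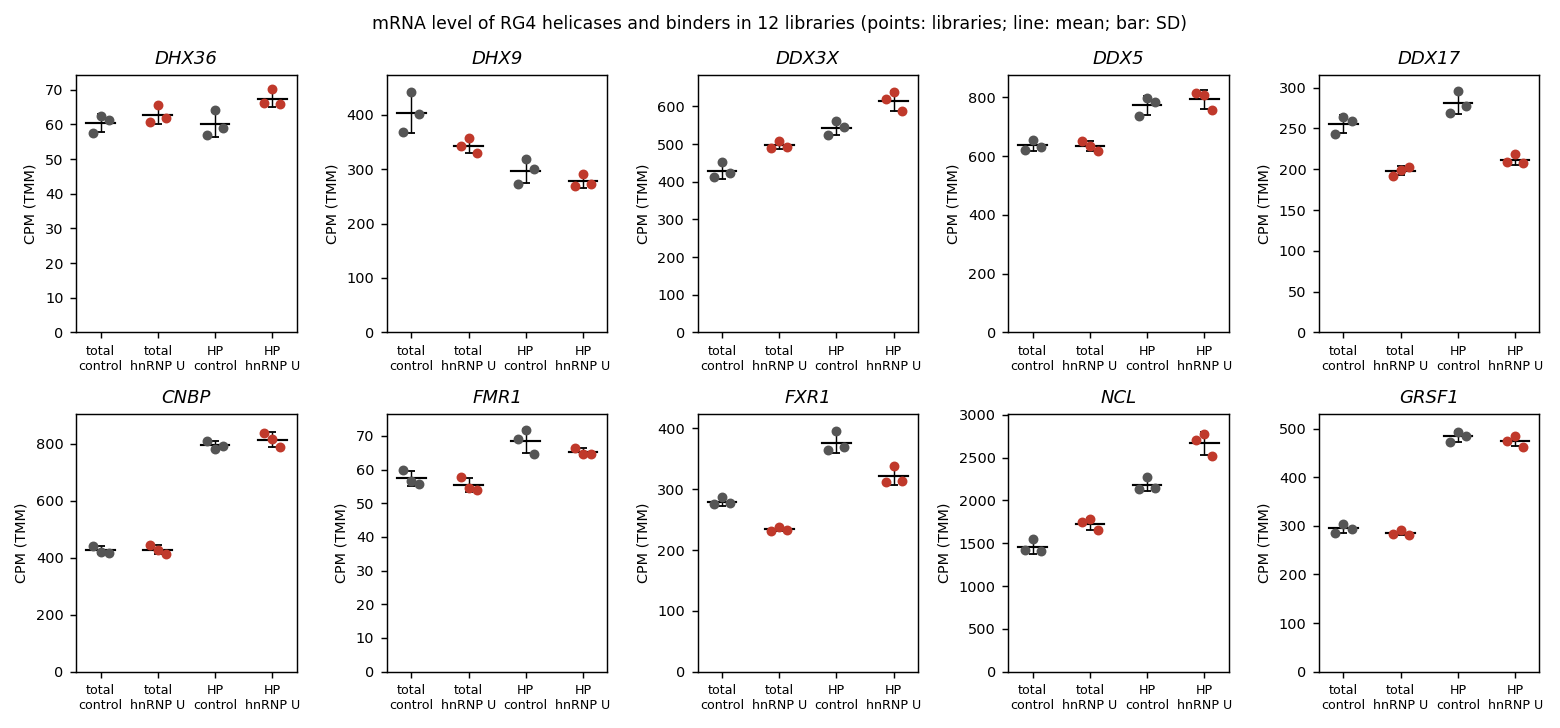
Level of each member (y axis, CPM scaled by TMM over the 12 libraries, from 0) in the 4 conditions (x axis), with 3 libraries as points, their mean as a line and their SD as a bar. Grey points are control siRNA and red points hnRNP U siRNA. DDX17 and FXR1 lie lower and DDX3X and NCL higher with hnRNP U siRNA in both kinds of RNA, without overlap between the siRNA groups.

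DDX17, a DEAD-box helicase that acts with DDX5 in splicing and miRNA processing, fell in both kinds of RNA. Its gene (ENSG00000100201) occupies 38483438 to 38507660 on the minus strand of chromosome 22 (GRCh38). In total RNA DDX17 had 243, 264 and 259 CPM with control siRNA and 192, 199 and 203 CPM with hnRNP U siRNA. In HP RNA DDX17 had 269, 296 and 278 CPM with control siRNA and 209, 219 and 207 CPM with hnRNP U siRNA. In neither RNA did the siRNA groups overlap. The log2 fold change was −0.37 (SE 0.04, adjusted p = 1.55e-06, edgeR) in total RNA and −0.44 (SE 0.05, adjusted p = 1.48e-06, edgeR) in HP RNA, or 0.772 and 0.735 of the control level.

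DDX5, the closest relative of DDX17 among the members, did not pass the test. Its gene (ENSG00000108654) lies on chromosome 17 from 64498254 to 64508199, on the minus strand. Total RNA held 621, 656 and 632 CPM of DDX5 with control siRNA and 650, 635 and 616 CPM with hnRNP U siRNA. HP RNA held 736, 796 and 783 CPM with control siRNA and 816, 806 and 756 CPM with hnRNP U siRNA. The groups overlapped in both RNAs, and the 95% interval of the log2 fold change was −0.10 to 0.08 in total RNA and −0.10 to 0.11 in HP RNA. The encoded proteins of DDX5 and DDX17 share 72.5% of 604 aligned residues, and no stretch of 75 bases, the read length, was shared between the canonical DDX17 or DDX5 transcript and another gene.

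The ratio of DDX17 to DDX5 counts within a library, which does not depend on the scaling between libraries, was lower in every silenced library. In total RNA the ratio was 0.392, 0.403 and 0.410 with control siRNA and 0.296, 0.313 and 0.330 with hnRNP U siRNA. In HP RNA it was 0.366, 0.372 and 0.354 with control siRNA and 0.256, 0.271 and 0.274 with hnRNP U siRNA. A ratio shows unequal change of the pair and does not by itself show which of them changed.

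**Figure D2:**
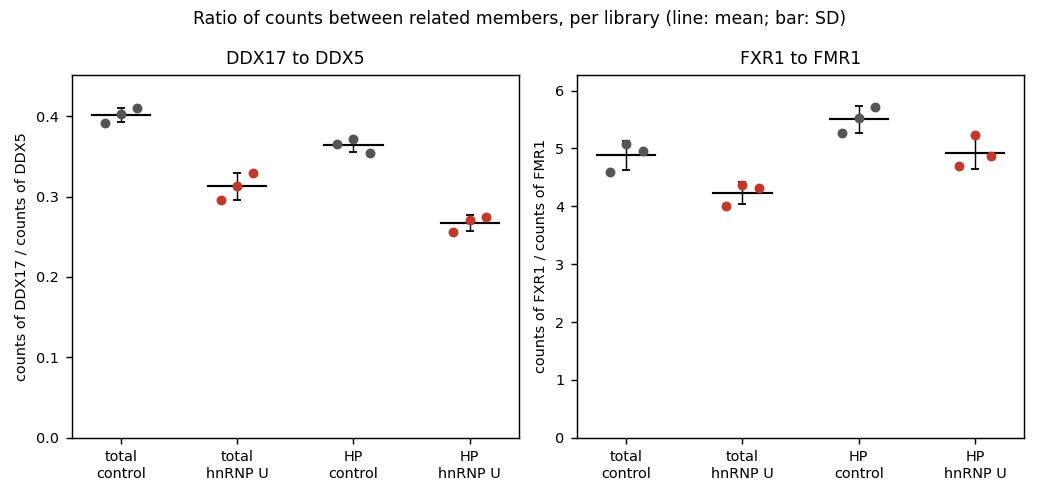
Ratio of counts of DDX17 to DDX5 (left) and of FXR1 to FMR1 (right) in each library (y axes, from 0), by condition (x axis), with the mean as a line and the SD as a bar. Both ratios are lower with hnRNP U siRNA, and the DDX17 to DDX5 ratio falls from between 0.392 and 0.410 to between 0.296 and 0.330 in total RNA.

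The DDX17 mRNA is 1 of 2 member mRNAs whose canonical transcript holds an RG4 motif, sought as 4 G runs (3 or more G each) separated by 1 to 7 nt. It lies in the 3′ UTR, in exon 13 of 13, at chr22:38485528-38485545 on the minus strand of GRCh38. It is shown because DDX17 had the largest change among the members, with the G runs in capitals.
DDX17 RG4 motif: GGGGaGGGaGGGaGGGGG
A motif of this kind was found in the canonical transcripts of 26.7% of 12758 protein-coding genes tested and in 2 of the 10 members. The DDX17 3′ UTR also holds a 7-nt match, TTGTAGT, to bases 2 to 8 (the seed) of the guide strand of hnRNP U siRNA 2, in capitals below, at chr22:38485197-38485203.
DDX17 seed match, hnRNP U siRNA 2: aagtgtttaTTGTAGTggttaaact
It holds a match to the control siRNA seed (CCCAAAT) as well, at chr22:38484145-38484151. Their part in the lower level of DDX17 was not tested.

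FMR1 and FXR1 encode FMRP and its paralogue, KH-domain proteins with RGG repeats that regulate the translation and stability of the mRNAs they bind. FXR1 fell and FMR1 did not pass the test. FXR1 (ENSG00000114416, chromosome 3, 180868141 to 180982753, plus strand) had 275, 287 and 277 CPM in total RNA with control siRNA and 232, 238 and 232 CPM with hnRNP U siRNA. In HP RNA FXR1 had 364, 395 and 370 CPM with control siRNA and 311, 339 and 314 CPM with hnRNP U siRNA. All silenced libraries lay below all control libraries, and the log2 fold change was −0.26 in total RNA (SE 0.04, adjusted p = 2.44e-05, edgeR) and −0.26 in HP RNA (SE 0.05, adjusted p = 0.000449, edgeR).

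FMR1 (ENSG00000102081, chromosome X, 147911919 to 147951125, plus strand) had 59.8, 56.6 and 55.7 CPM in total RNA with control siRNA and 57.7, 54.6 and 53.8 CPM with hnRNP U siRNA. The HP RNA libraries held 69.1, 71.6 and 64.7 CPM with control siRNA and 66.4, 64.7 and 64.5 CPM with hnRNP U siRNA. Its groups overlapped in both RNAs, and the log2 fold change had 95% intervals of −0.15 to 0.04 in total RNA and −0.23 to 0.02 in HP RNA. The count ratio of FXR1 to FMR1 in total RNA was 4.88 ± 0.249 (SD, n = 3) in control and 4.23 ± 0.190 (SD, n = 3) in silenced cells. In HP RNA the ratio was 5.50 ± 0.226 (SD, n = 3) and 4.93 ± 0.278 (SD, n = 3). The proteins share 66.4% of 538 aligned residues.

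FXR1 is the other member with an RG4 motif, in its 3′ UTR, in exon 17 of 17, at chr3:180976585-180976606 on the plus strand. The G runs are in capitals.
FXR1 RG4 motif: GGGGGGtggtGGGtGGGGtGGG
Its 3′ UTR of 6461 nt, the longest of the 10, also holds 2 copies of the seed match of hnRNP U siRNA 1 (GTATGCT), at chr3:180980194-180980200 and chr3:180980330-180980336, shown in capitals because FXR1 fell.
FXR1 seed match 1, hnRNP U siRNA 1: tcataaggaGTATGCTgaatttaag
FXR1 seed match 2, hnRNP U siRNA 1: cactattaaGTATGCTactaattag
Seed matches were sought in 3′ UTRs only, and a match to this seed was found in those of 2 of the 10 members and of 7.29% of the 12758 genes. The other member with one was GRSF1, which did not pass the test. The part of seed matches in these levels was not tested.

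These are the only motifs among the members, also with loops of up to 12 nt, a definition met by 43.1% of the genes. With runs of at least 2 G, all 10 members held a motif, as did 97.2% of the genes. The seed of hnRNP U siRNA 2 matched the 3′ UTRs of 2 members, DDX17 and DHX9 (13.1% of the genes), and the control seed those of DHX36, DDX17 and CNBP (15.2% of the genes). A match is a run of letters and not evidence that an siRNA or a folded RG4 acted there.

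DDX3X and NCL rose. DDX3X, a DEAD-box helicase needed for the translation of mRNAs with structured 5′ UTRs, lies on chromosome X from 41333348 to 41364472 (ENSG00000215301, plus strand). It had 412, 452 and 423 CPM in total RNA with control siRNA and 490, 509 and 491 CPM with hnRNP U siRNA. HP RNA held DDX3X at 524, 560 and 544 CPM with control siRNA and 620, 637 and 587 CPM with hnRNP U siRNA. The siRNA groups did not overlap in either RNA. The log2 fold change was 0.21 (SE 0.04, adjusted p = 0.000642, edgeR) in total RNA and 0.15 (SE 0.05, adjusted p = 0.0223, edgeR) in HP RNA. The call in HP RNA was lost when replicate 1 or 3 of control siRNA or replicate 1 or 2 of hnRNP U siRNA was left out, with adjusted p from 0.0518 to 0.0935 and log2 fold changes from 0.12 to 0.14. Of the 75-base stretches of the canonical DDX3X transcript, 2.54% occur in another gene, as do 1.13% for DHX9 and 0.062% for CNBP. A small part of such reads could have been counted elsewhere or left uncounted.

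NCL (ENSG00000115053, chromosome 2, 231453531 to 231483641, minus strand) had 1416, 1545 and 1405 CPM in total RNA with control siRNA and 1747, 1789 and 1652 CPM with hnRNP U siRNA. In HP RNA NCL reached 2138, 2274 and 2145 CPM with control siRNA and 2703, 2776 and 2522 CPM with hnRNP U siRNA. Again no silenced library overlapped a control library. The log2 fold change was 0.24 (SE 0.05, adjusted p = 0.00034, edgeR) in total RNA and 0.25 (SE 0.05, adjusted p = 0.000398, edgeR) in HP RNA. The introns of NCL host the small nucleolar RNAs SNORA75, SNORD20 and SNORD82, which lie on the same strand. The 3′ UTRs of NCL and DDX3X held no match to either hnRNP U siRNA seed, and their canonical transcripts no RG4 motif. The same held for DHX36, DDX5, CNBP and FMR1, which were called in neither RNA. The part of these features in the levels was not tested.

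Of the DEAH-box helicases, DHX9 was called in total RNA and DHX36 in neither RNA. DHX9, a nuclear helicase of RNA–DNA hybrids and structured RNA, had a lower level in total RNA. The gene (ENSG00000135829) lies on chromosome 1 from 182839347 to 182887982. It had 369, 442 and 400 CPM in total RNA with control siRNA and 342, 356 and 329 CPM with hnRNP U siRNA, which did not overlap. Its HP RNA levels were 273, 319 and 300 CPM with control siRNA and 269, 291 and 272 CPM with hnRNP U siRNA, which did. The log2 fold change was −0.24 (SE 0.06, adjusted p = 0.00136, edgeR) in total RNA and −0.13 (SE 0.06, adjusted p = 0.0609, edgeR) in HP RNA. In HP RNA DHX9 was called lower with a replicate block (−0.13, adjusted p = 0.00644), with no filter on low counts (adjusted p = 0.036) and without replicate 1 of control siRNA (adjusted p = 0.00874) or replicate 2 of hnRNP U siRNA (adjusted p = 0.0447). That DHX9 passed the test in 1 RNA and not in the other does not show a difference between them, which is tested below. An antisense gene, DHX9-AS1, overlaps DHX9. On the opposite strand CEP95 overlaps DDX5, KDELR3 overlaps DDX17, RN7SL15P overlaps DDX3X and 3 annotated genes overlap FXR1. The libraries were directional, but the strand setting of the counting is not given, so reads of such a pair may have been mixed. The DHX9 3′ UTR holds 1 seed match to hnRNP U siRNA 2, in capitals, at chr1:182887563-182887569 on the plus strand.
DHX9 seed match, hnRNP U siRNA 2: tgtggttcaTTGTAGTttaaggaaa

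DHX36, a helicase that binds folded G-quadruplexes with high affinity, did not pass the test in either RNA. Its gene (ENSG00000174953) lies on chromosome 3 from 154272546 to 154324487. It had 57.5, 62.4 and 61.2 CPM in total RNA with control siRNA and 60.6, 65.5 and 61.9 CPM with hnRNP U siRNA. HP RNA held DHX36 at 57.1, 64.1 and 59.0 CPM with control siRNA and 66.3, 70.2 and 65.8 CPM with hnRNP U siRNA. The groups overlapped in total RNA and not in HP RNA, where the log2 fold change was 0.13 (SE 0.06, 95% interval 0.01 to 0.26, adjusted p = 0.0753, edgeR). It was called higher in HP RNA when all 12 libraries were fitted together (0.17, adjusted p = 0.0129), with a replicate block (0.13, adjusted p = 0.0171) and without replicate 2 of control siRNA (0.17, adjusted p = 0.0294).

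CNBP and GRSF1 did not pass the test. CNBP (ENSG00000169714, chromosome 3, 129167827 to 129183922) had 442, 421 and 416 CPM in total RNA with control siRNA and 443, 428 and 413 CPM with hnRNP U siRNA. HP RNA held CNBP at 810, 781 and 793 CPM with control siRNA and 839, 817 and 787 CPM with hnRNP U siRNA. The groups overlapped throughout, and its 95% interval was −0.09 to 0.09 in total RNA and −0.10 to 0.10 in HP RNA.

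GRSF1, a mitochondrial RNA granule protein of the hnRNP H/F kind that binds G-rich RNA, lies on chromosome 4 from 70815783 to 70839897 (ENSG00000132463, minus strand). It had 285, 305 and 294 CPM in total RNA with control siRNA and 284, 291 and 281 CPM with hnRNP U siRNA. HP RNA held GRSF1 at 473, 494 and 485 CPM with control siRNA and 475, 484 and 463 CPM with hnRNP U siRNA. Its groups overlapped in both RNAs, with 95% intervals of −0.14 to 0.03 and −0.17 to 0.04 on the log2 scale. Its single seed match to hnRNP U siRNA 1, in capitals, lies at chr4:70819743-70819749 on the minus strand.
GRSF1 seed match, hnRNP U siRNA 1: caaaatcctGTATGCTttctttgcc
Of the study's trio of hnRNP U, DDX3X and GRSF1, the silencing of the first was thus accompanied by more DDX3X mRNA in both RNAs and by no called change of GRSF1 mRNA. The DDX3X call in HP RNA did not hold in every fit that left out a library. By western blot in the same cell line, the paper found DDX3X protein unchanged when hnRNP U was silenced. The values here are of mRNA only, and their relation to the protein level was not tested.

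**Figure D3:**
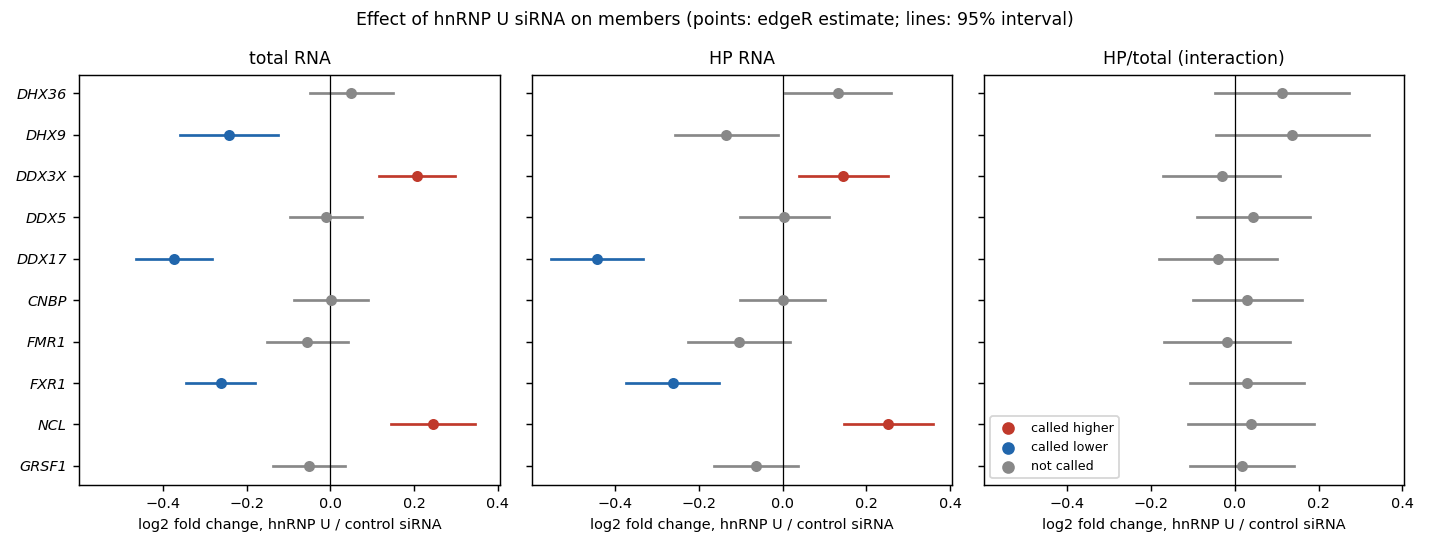
Log2 fold change of each member between hnRNP U siRNA and control siRNA (x axis) in total RNA, in HP RNA and as the difference between them (HP/total), with the edgeR estimate as a point and its 95% interval as a line. Red and blue mark members called higher and lower, and grey those not called. In HP/total all 10 intervals include 0.

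HP/total, the change of a member in HP RNA beyond its change in total RNA, was not called for any member. By edgeR's quasi-likelihood test 0 of 10 were called, with 0 of 10 at an unadjusted p under 0.05, and DESeq2 also called 0. Over all genes 0.0817% were called higher and 0.0817% lower. The largest estimates were those of the DEAH-box helicases, with a log2 difference of 0.14 for DHX9 (95% interval −0.05 to 0.32) and of 0.11 for DHX36 (95% interval −0.05 to 0.27). The others lay between −0.04 and 0.04, beside a median of 0.04 over all genes. The interval of DDX3X was −0.17 to 0.11, that of GRSF1 −0.11 to 0.14, that of DDX17 −0.18 to 0.10 and that of NCL −0.11 to 0.19. The data thus leave room for differences of up to the bounds of these intervals. HNRNPU itself differed, at −1.09 (SE 0.08, adjusted p = 2.34e-07, edgeR).

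The members differed in how rich they were in heavy polysomes to begin with. In control cells, 8 of the 10 were called higher in HP RNA than in total RNA and 1 lower by edgeR's quasi-likelihood test, where 33.1% of all genes were called higher and 32.0% lower. Their median log2 ratio was 0.31, beside −0.02 over all genes. With hnRNP U siRNA, 7 were called higher and 1 lower, where the shares over all genes were 34.4% and 33.7%. A high share was not particular to the members. Among the lists of related genes given below, the share called higher in control cells ran from 0.0% (DNA G-quadruplex helicases) to 94.4% (other RG4 or G-rich RNA binders). It was 62.5% for other DEAD- and DEAH-box genes (median log2 ratio 0.30) and 70.0% for the mitochondrial partners of GRSF1 (median 0.29). TMM sets the ratio of most genes near 1, so these values rank mRNAs against each other and do not show a shift shared by most of them. In total RNA, genes of the mitochondrial genome took 10.8%, 11.2% and 11.4% of the counts with control siRNA and 9.23%, 8.84% and 9.70% with hnRNP U siRNA. In HP RNA these genes took 0.868%, 1.04% and 1.24% with control siRNA and 1.19%, 1.29% and 1.25% with hnRNP U siRNA. The groups did not overlap in total RNA, and the part of this in the members' levels was not tested.

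CNBP, whose coding sequence of 534 nt is the shortest of the 10, had the highest ratio in control cells, 0.90 on the log2 scale (SE 0.05, adjusted p = 1.21e-09, edgeR). GRSF1 followed with 0.71 (SE 0.05) and NCL with 0.59 (SE 0.05). FXR1 had 0.43, DDX3X 0.34, DDX5 0.28 and FMR1 0.25, each called higher. DDX17 had 0.14 (SE 0.05, adjusted p = 0.0356, edgeR), a call lost without replicate 2 or 3 of the HP RNA libraries or replicate 1 or 3 of the total RNA libraries (adjusted p from 0.0549 to 0.155). The log2 ratio of DHX36 had a 95% interval of −0.13 to 0.12. DHX9 was the only member poorer in HP RNA, at −0.44 (SE 0.07, adjusted p = 5.45e-05, edgeR), and its coding sequence of 3813 nt is the longest of the 10. The coding lengths are given as a description, and their part in these ratios was not tested.

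With hnRNP U siRNA the order was nearly the same, with CNBP at 0.90, GRSF1 at 0.71, NCL at 0.60, FXR1 at 0.43, DDX5 at 0.30, DDX3X at 0.28 and FMR1 at 0.21, each called higher. DHX9 stayed lower at −0.33 (SE 0.05, adjusted p = 3.24e-06, edgeR), and DHX36 (95% interval −0.02 to 0.18) and DDX17 (−0.02 to 0.16) did not pass the test. Per replicate number, the log2 ratio of HP to total CPM for DHX9 was −0.47 to −0.41 in control cells and −0.35 to −0.27 with hnRNP U siRNA. For DHX36 it was −0.05 to 0.04 and 0.09 to 0.13. These ranges did not overlap, but how many of all genes have such a gap was not counted. The HP/total test called neither gene (edgeR, unadjusted p = 0.134 for DHX9 and 0.159 for DHX36). Libraries of the same number were not shown to come from 1 culture.

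**Figure D4:**
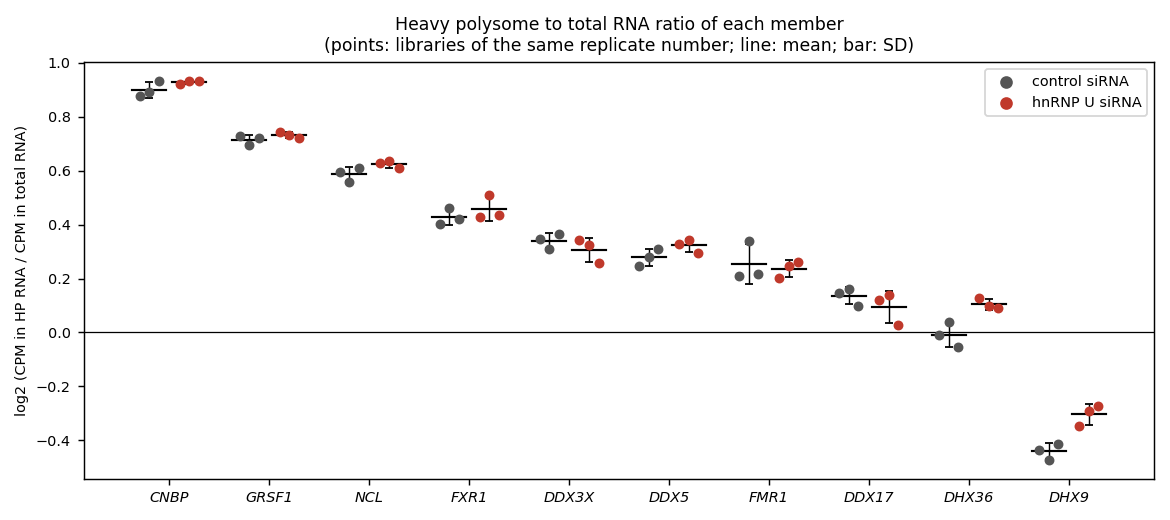
Log2 ratio of CPM in HP RNA to CPM in total RNA (y axis) for each member (x axis, in order of the control mean), for libraries of the same replicate number as points, with the mean as a line and the SD as a bar. Grey is control siRNA and red hnRNP U siRNA. CNBP lies near 0.9 and DHX9 below 0 in both.

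The members' levels fell into different patterns over the 12 libraries. Pearson's r of log2 CPM was 0.99 between CNBP and GRSF1 and 0.98 between DDX3X and NCL, while DHX9 ran against NCL at −0.86. These values describe 12 libraries that share the split into HP and total RNA and the split by siRNA. The part of each split in these values was not tested. Among 6072 protein-coding genes of mean log2 CPM of at least 5, those most like DDX3X were IMMT, PHRF1 and FAM98A with r from 0.989 to 0.991. Those most like GRSF1 were MAPRE1, PSMB5 and LRRC59 with r from 0.998 to 0.999, and those most like DHX36 were COPB2, ACLY and SUPT16H with r from 0.927 to 0.967.

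The encoded proteins were described from the annotated coding sequences. The coding sequences of DDX3X, DDX5 and DDX17 encode the DEAD form of helicase motif II once each, and those of DHX36 and DHX9 the DEIH form. RGG repeats, through which many proteins contact RG4s, numbered 10 in NCL, 5 in DDX17, 4 in DHX9, 2 each in DDX5, CNBP, FMR1 and FXR1, 1 each in DHX36 and DDX3X and 0 in GRSF1. CNBP holds 7 CCHC zinc knuckles in 177 residues. Of the members called in total RNA, NCL with 10 RGG and DDX3X with 1 rose, and DDX17 with 5, DHX9 with 4 and FXR1 with 2 fell. A relation of RGG number to these changes was not tested.

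Genes related to the members were also examined, from lists that hold no member. Their counts stand beside background shares of 28.0% called higher and 29.3% lower over all genes in total RNA, and of 25.5% and 26.3% in HP RNA. Of 7 other RNA helicases linked to RG4s, 3 were called higher and 0 lower in both total and HP RNA (42.9% higher), and the other 4 did not pass the test. EIF4A2, a DEAD-box initiation factor, rose by 0.73 (SE 0.05) in total RNA and by 1.14 (SE 0.06) in HP RNA on the log2 scale. MOV10, a helicase that binds 3′ UTRs, rose by 0.28 (SE 0.05) and 0.38 (SE 0.07). The list's median log2 fold change was 0.05 in total RNA and 0.10 in HP RNA.

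Other RG4 or G-rich RNA binders moved both ways. Of 18 tested, 5 were called higher and 7 lower in total RNA (27.8% and 38.9%), and 6 higher and 6 lower in HP RNA (33.3% each), while LIN28B was too low to be tested. HNRNPH3, of the hnRNP H/F family like GRSF1, rose by 1.11 (SE 0.04) in total RNA and by 1.27 (SE 0.05) in HP RNA. Its relative HNRNPH1 had −0.59 (SE 0.05) and −0.59 (SE 0.06), both called lower. G3BP1, the core of stress granules, rose by 0.42 (SE 0.04) and 0.48 (SE 0.05). The list's medians were −0.03 and −0.02. In control cells 17 of the 18 were called higher in HP RNA than in total RNA and 1 lower (94.4% and 5.56%), where 33.1% of all genes were called higher and 32.0% lower.

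Of 10 mitochondrial RNA granule and RNA turnover partners of GRSF1, 7 were called higher and 1 lower in total RNA, where 28.0% of all genes were higher and 29.3% lower, and 5 higher and 1 lower in HP RNA, where the shares were 25.5% and 26.3%. The list's medians were 0.20 and 0.19 on the log2 scale. TBRG4 rose by 0.45 (SE 0.04) and 0.48 (SE 0.05), and DDX28, a mitochondrial DEAD-box protein, by 0.44 (SE 0.08) and 0.52 (SE 0.07). LRPPRC, which stabilises mitochondrial mRNAs, had −0.24 (SE 0.05, adjusted p = 0.000347, edgeR) in total RNA and −0.16 (SE 0.06, adjusted p = 0.0262, edgeR) in HP RNA. The call of LRPPRC in HP RNA was lost when all 12 libraries were fitted together (adjusted p = 0.0589) and in 3 of the 6 fits that left out 1 library. These were the fits without replicate 2 of control siRNA (adjusted p = 0.0981) and without replicate 1 (adjusted p = 0.117) or replicate 3 (adjusted p = 0.0987) of hnRNP U siRNA.

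Of 10 partners of FMRP and stress granules, 2 were called higher and 4 lower in total RNA, and 1 higher and 2 lower in HP RNA. STAU1, a double-stranded RNA binder, rose by 0.20 (SE 0.04) and 0.19 (SE 0.05), while its paralogue STAU2 had −0.50 (SE 0.05) and −0.59 (SE 0.07). CYFIP2, which links FMRP to the cytoskeleton, had −0.62 (SE 0.06) and −0.63 (SE 0.06), and all 4 of these values of STAU2 and CYFIP2 were called lower. Of 6 DNA G-quadruplex helicases, 1 was called higher and 2 lower in both RNAs (16.7% and 33.3%). WRN rose by 0.34 (SE 0.05) and 0.45 (SE 0.07), and BRIP1 had −0.54 (SE 0.05) and −0.34 (SE 0.07), both called lower.

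Of 40 other DEAD- and DEAH-box genes tested, 17 were called higher and 9 lower in total RNA (42.5% and 22.5%), and 16 higher and 8 lower in HP RNA, with medians of 0.11 and 0.11. DHX29, an initiation helicase for structured mRNAs, rose by 0.42 (SE 0.05) and 0.54 (SE 0.06), and DDX10 by 0.32 (SE 0.04) and 0.37 (SE 0.06). DHX32 had −0.86 (SE 0.06) and −0.91 (SE 0.07), and DDX31 had −0.91 (SE 0.06) and −0.86 (SE 0.07), all called lower. In HP/total, EIF4A2 was the only one of 91 tested genes of these 6 lists that edgeR called, where 0.0817% of all genes were called higher. At an unadjusted p under 0.05 there were 8 of the 91 (8.79%), near the 7.04% over all genes. DESeq2 called 2 of the 91 (2.20%) and 49 of the 15920 genes (0.308%).

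**Figure D5:**
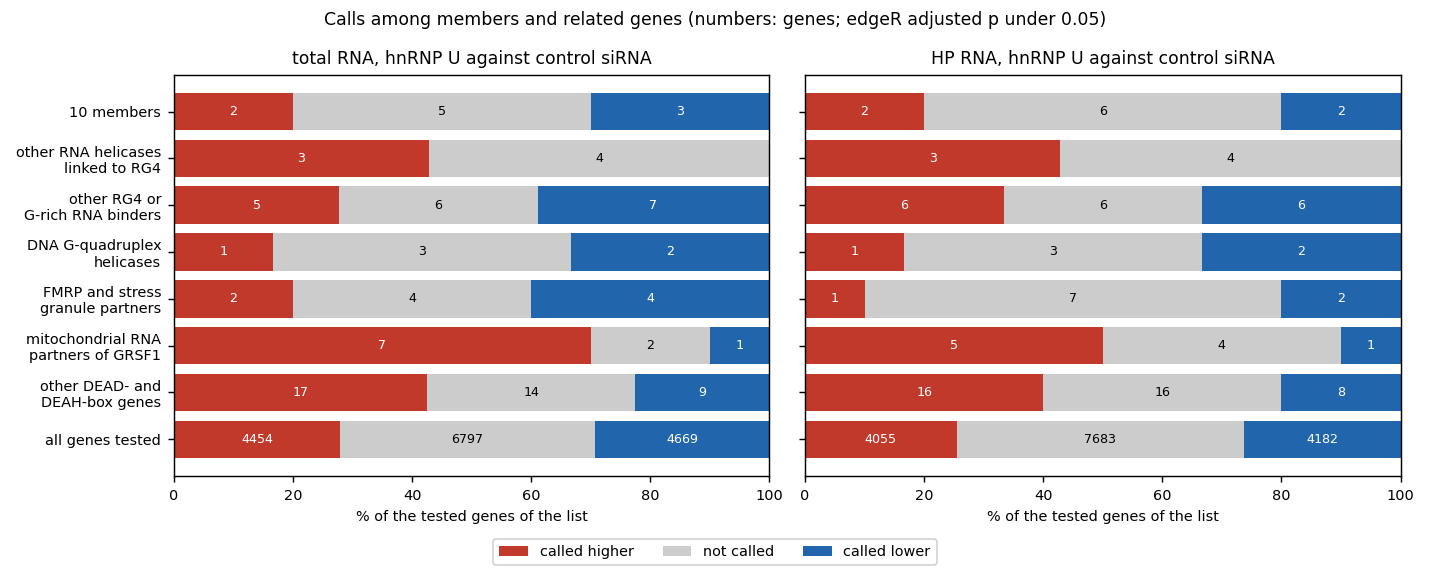
Share of the tested genes of each list (x axis, %) that edgeR called higher (red), lower (blue) or not at all (grey) with hnRNP U siRNA in total RNA (left) and HP RNA (right), with the number of genes in each bar and all genes tested at the bottom. Of the partners of GRSF1, 7 of 10 are called higher in total RNA, and among the 10 members 2 are higher and 3 lower.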

How the data were processed

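Per the labels and methods, HCT116 cells were transfected for 48 h with control or hnRNP U siRNA, and poly(A)-selected directional libraries were read from 1 end over 75 bp. The authors converted base calls with Bcl2fastq (CASAVA 1.8 in the submitters' processing notes), trimmed reads with Trim Galore, aligned them to hg38 with STAR and deposited raw counts per gene of GENCODE, with no normalization. The STAR version and the strand setting are not given in the sources used here. ERCC spikes are named in the methods, but the table has 0 such entries. Molecular identifiers are not mentioned in the sources used here. Errors given are between libraries, of 30305012 to 39761103 counts each.

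Names, coordinates (GRCh38) and sequences came from GENCODE release 44, in which 62639 of the 62703 identifiers were found. Coding sequences were translated for protein features. Genes were kept by filterByExpr (minimum count 10), leaving 15920, and tested with edgeR 4.0.16 in R 4.3.3 (TMM scaling, quasi-likelihood test, p-values adjusted by Benjamini-Hochberg over these genes, called under 0.05). Total RNA, HP RNA and each siRNA were fitted on 6 libraries, and HP/total as the interaction over 12. Printed CPM use TMM factors of all 12 libraries, so they can differ slightly from fitted fold changes. The fits were tested on simulated counts.

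The members, lists and alternatives were chosen with earlier results of these data known. All members and HNRNPU are named, and from each list up to 2 genes called higher and 2 called lower with the largest change in HP RNA (mean log2 CPM of at least 3). The values of 1 gene that this rule names are not reported here. The 3 genes most like DDX3X, GRSF1 and DHX36 were taken by Pearson's r. RG4 motifs were searched on the sense strand of whole canonical transcripts, and 7-nt seed matches in their 3′ UTRs only. Alternatives were DESeq2 1.42.0, its size factors in edgeR, no filter on low counts, all 12 libraries in 1 fit, replicate blocks, another gene length, other RG4 definitions and leaving out each library in turn.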

Additional observations from a re-analysis of the deposited data

Results flagged for a closer look

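Among HNRNPU and the genes of the lists, the effect of hnRNP U siRNA differed between HP RNA and total RNA, by the test of the interaction of siRNA and fraction (edgeR, adjusted over all genes), for 2 genes. HNRNPU, the siRNA target, had a log2 difference of −1.09 (SE 0.08, adjusted p = 2.34e-07). Its HP to total ratio by replicate number ran from 0.04 to 0.12 on the log2 scale with control siRNA and from −1.06 to −0.98 with hnRNP U siRNA, so that the RNA that remained after silencing was poor in heavy polysomes.

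EIF4A2, which encodes a paralogue of the cap-binding complex helicase EIF4A1, had a log2 difference of 0.44 (SE 0.08, adjusted p = 0.00939). In total RNA it had 301, 261 and 268 CPM with control siRNA and 464, 456 and 457 CPM with hnRNP U siRNA. In HP RNA it had 276, 250 and 246 CPM with control siRNA and 589, 592 and 561 CPM with hnRNP U siRNA. The groups did not overlap in either RNA, and the ratio of HP to total RNA rose in 3 of 3 replicate numbers. The call was lost without replicate 2 of the HP RNA libraries with hnRNP U siRNA (log2 difference 0.35, adjusted p = 0.146) and held without each of the other 11 libraries in turn. The cause of either difference was not tested.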

How the results depend on the processing

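The calls in total RNA (2 members higher, 3 lower) held under every alternative run. In HP RNA the number of members called higher ran from 1 to 3 when 1 library was left out, since DDX3X lost its call in 4 of these fits, and the number called in all from 3 to 5. With DESeq2, 4 members were called in HP RNA. In HP/total 0 members were called under any alternative. Over all genes, the calls in HP/total numbered 26, and 49 with DESeq2, 61 with no filter on low counts, 78 with a replicate block and 140 with a replicate block by culture. Fitting all 12 libraries together moved the calls in HP RNA from 4055 higher and 4182 lower to 4880 and 4031.

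Signs turned only for estimates near 0 that no fit called. With no filter on low counts, the log2 fold change was −0.0066 for CNBP in total RNA, −0.0028 for DDX5 and −0.0066 for CNBP in HP RNA, and 0.0061 for DHX36 in control HP against total RNA. In HP/total it was −0.02 for DDX5 (−0.019), −0.03 for CNBP (−0.035), FXR1 (−0.034) and NCL (−0.026), and −0.046 for GRSF1. In HP/total DESeq2 gave −0.0056 for CNBP, −0.0055 for FXR1 and −0.018 for GRSF1, and its size factors −0.0056, −0.0054 and −0.018. The median over all genes moved there from 0.036 to 0.001.

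With 1 library left out, ranges that crossed 0 were −0.028 to 0.014 for DDX5 and −0.019 to 0.031 for CNBP in total RNA, and −0.028 to 0.035 and −0.021 to 0.022 in HP RNA. In HP/total they were −0.13 to 0.0010 for DDX3X, −0.042 to 0.077 for DDX5, −0.047 to 0.058 for CNBP, −0.087 to 0.016 for FMR1, −0.084 to 0.066 for FXR1, −0.065 to 0.077 for NCL and −0.072 to 0.042 for GRSF1. In control HP against total RNA the range was −0.056 to 0.027 for DHX36.

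Deviations of libraries with the same replicate number from their condition means correlated at −0.018 to 0.107. HP and total libraries of 1 siRNA with the same number correlated at 0.044 to 0.107 in all 6 pairs, against −0.108 to 0.0065 for different numbers, and 12 of 12 libraries correlated best with their own number. Between the siRNAs within 1 RNA, 9 of 12 did. Titles of the same number share an experiment label, which is not stated to mark a shared culture or day. The main fits used no block. Since HP and total libraries of 1 siRNA were most alike within a number, fits without a block may have missed differences. With the replicate block, CNBP in HP RNA turned to −2.7e-05, DHX36 (0.13, adjusted p = 0.0171) and DHX9 (−0.13, adjusted p = 0.00644) were called in HP RNA, and DHX36 and DDX17 in HP against total RNA with hnRNP U siRNA (adjusted p = 0.0482 and 0.0307). It changed no other call of a member. With 3 libraries per condition, log2 differences of up to the bounds of the printed intervals remain possible for members that were not called.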
